A study of Mus musculus with 31 samples.

Results

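Regions trimethylated at lysine 4 of histone H3 (H3K4me3) that lie inside protein-coding genes but away from both gene ends were described in mouse hippocampus. They were selected on the deposited peaks themselves: the peaks of the 4 longest H3K4me3 lists (more than 10000 peaks each) were merged, and a merged region was kept when it had a peak in at least 2 of these lists and met H3K4me1 peaks (monomethylation of the same lysine) of fewer than 8 libraries. Of 22623 merged regions on the autosomes and X, 14500 passed these limits. Of those, 1307 (9.01%) lay inside a protein-coding gene and more than 5 kb from both ends of every protein-coding gene, and these are called internal regions below. A further 11583 lay within 2 kb of a gene end, 666 between 2 and 5 kb from one, and 944 were intergenic.

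The mice were C57BL6, 30 days old, and either KMT2D+/+ or KMT2D+/bGeo, that is, with 1 allele of the H3K4 methyltransferase gene Kmt2d carrying a bGeo insertion. From 2 weeks of age each genotype received TAK-418 (which inhibits LSD1, an H3K4 demethylase) at 1 mg/kg/day by gavage for 2 weeks, or the methylcellulose vehicle (Veh) alone. Each of the 4 groups had 4 H3K4me3 libraries, 1 per mouse, and 16 mice gave 31 libraries of both marks. The genotype comparison asks where the insertion allele changes the mark, and the TAK-418 comparisons ask where the inhibitor does. Whole hippocampus mixes cell types, so fewer cells of a type and less of the mark per cell cannot be told apart.

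H3K4me3 is laid down around active and poised transcription starts, mostly at sequences rich in CpG dinucleotides, which are bound by CpG-reading subunits of the methyltransferase complexes. Many neuronal genes are long and use further promoters inside the gene, each giving a transcript with its own first exon, and non-coding RNAs also start inside host genes. An H3K4me3 region far from the ends of a gene is therefore often read as an alternative or non-coding promoter.

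Sequence was read only at the starts that RefSeq annotates (assembly GRCm38.p6, the mm10 build). The 623 internal regions at no annotated start are therefore not covered by what follows on CpG. Below are the 250 bases before a start, 5′ to 3′ on the strand of the gene, with every CpG in capitals. They are shown because 3 neuronal genes each hold an annotated start at an internal region and another start, also off the ends, at no kept region. Cacna1c encodes an L-type calcium channel subunit, Bdnf a neurotrophin, and Nrxn3 a presynaptic adhesion protein. In each gene the start shown at a region is the richest in CpG of its kind, and the start shown at none is the poorest.
Cacna1c, start at a region, chr6:119108496-119108745, - strand: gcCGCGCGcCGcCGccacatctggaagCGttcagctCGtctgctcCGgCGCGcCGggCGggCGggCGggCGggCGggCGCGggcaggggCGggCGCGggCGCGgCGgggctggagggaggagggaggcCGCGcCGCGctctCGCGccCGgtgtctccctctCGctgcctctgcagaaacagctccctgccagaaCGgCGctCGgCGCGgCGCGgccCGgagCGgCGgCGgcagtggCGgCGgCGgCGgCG
Cacna1c, start at none, chr6:118757975-118758224, - strand: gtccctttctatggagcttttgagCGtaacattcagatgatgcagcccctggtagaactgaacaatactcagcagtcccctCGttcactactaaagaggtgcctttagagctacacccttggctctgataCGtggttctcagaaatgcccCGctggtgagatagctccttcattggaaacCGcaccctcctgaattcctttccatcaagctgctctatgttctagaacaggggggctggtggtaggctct
Bdnf, start at a region, chr2:109694159-109694408, + strand: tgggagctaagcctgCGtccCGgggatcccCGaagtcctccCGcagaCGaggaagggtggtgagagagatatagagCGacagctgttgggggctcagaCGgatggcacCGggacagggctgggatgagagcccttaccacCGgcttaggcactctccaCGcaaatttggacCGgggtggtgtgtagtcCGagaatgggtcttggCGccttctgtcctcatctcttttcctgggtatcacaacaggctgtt
Bdnf, start at none, chr2:109709133-109709382, + strand: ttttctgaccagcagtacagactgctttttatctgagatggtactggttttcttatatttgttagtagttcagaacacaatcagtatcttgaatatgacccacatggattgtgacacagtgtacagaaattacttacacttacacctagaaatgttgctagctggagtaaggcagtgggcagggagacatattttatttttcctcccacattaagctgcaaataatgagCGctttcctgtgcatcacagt
Nrxn3, start at a region, chr12:89812233-89812482, + strand: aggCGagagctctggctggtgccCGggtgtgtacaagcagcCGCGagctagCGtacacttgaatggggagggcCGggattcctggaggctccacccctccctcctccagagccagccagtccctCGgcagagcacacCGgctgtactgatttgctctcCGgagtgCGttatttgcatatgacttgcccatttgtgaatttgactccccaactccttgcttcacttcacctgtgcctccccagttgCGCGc
Nrxn3, start at none, chr12:88794254-88794503, + strand: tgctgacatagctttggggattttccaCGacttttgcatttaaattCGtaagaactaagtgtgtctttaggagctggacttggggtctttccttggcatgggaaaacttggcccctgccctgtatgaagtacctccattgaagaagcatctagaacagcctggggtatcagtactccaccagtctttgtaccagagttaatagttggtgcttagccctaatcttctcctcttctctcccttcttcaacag

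Within the bases printed, Cacna1c held 48 CpG at the start with a region and 5 at the start without one. The counts were 13 and 1 for Bdnf, and 12 and 2 for Nrxn3. The Cacna1c region, 3586 bases wide, had a mean fold enrichment of 5.28 over 4 long lists, the Bdnf region one of 4.32 over 4 lists, and the Nrxn3 region one of 3.78 over 3 lists. Fold enrichment is the authors' own value of a peak relative to its local background. These starts were picked for their CpG content and stand as examples only.

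The next 3 starts show an internal promoter of a voltage-gated potassium channel gene and those of a pair of imprinted non-coding RNAs. Kcna2 encodes a Shaker-type channel, Kcnq1ot1 is a long non-coding RNA that runs antisense inside Kcnq1, and Airn one that runs antisense inside Igf2r.
Kcna2, start at a region, chr3:107101317-107101566, + strand: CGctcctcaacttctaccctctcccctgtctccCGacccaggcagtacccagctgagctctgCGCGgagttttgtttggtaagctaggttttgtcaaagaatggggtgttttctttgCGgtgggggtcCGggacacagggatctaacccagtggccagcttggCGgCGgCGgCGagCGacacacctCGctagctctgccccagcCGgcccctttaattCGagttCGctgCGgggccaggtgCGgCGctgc
Kcnq1ot1, start at a region, chr7:143296548-143296797, - strand: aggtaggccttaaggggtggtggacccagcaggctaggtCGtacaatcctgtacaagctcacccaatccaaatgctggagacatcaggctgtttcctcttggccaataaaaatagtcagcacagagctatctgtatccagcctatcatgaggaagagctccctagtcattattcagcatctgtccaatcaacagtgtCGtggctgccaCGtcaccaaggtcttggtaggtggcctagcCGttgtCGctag
Airn, start at a region, chr17:12741061-12741310, + strand: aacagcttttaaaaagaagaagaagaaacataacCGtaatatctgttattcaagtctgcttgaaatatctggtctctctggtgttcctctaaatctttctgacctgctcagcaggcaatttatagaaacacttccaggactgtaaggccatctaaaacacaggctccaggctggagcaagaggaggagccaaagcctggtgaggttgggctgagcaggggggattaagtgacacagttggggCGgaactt

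Kcna2 had 18 CpG in its printed bases, Kcnq1ot1 5 and Airn 2. The 2 imprinted starts were thus poorer in CpG before the start than Kcna2. Their regions lay just downstream of the bases shown: the region in Kcnq1 covered chr7:143295011-143296439 and the one in Igf2r chr17:12741430-12742556.

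Across the genome the same contrast held between marked and unmarked starts. In a 300-base window (250 before the start and 50 after it), 767 protein-coding starts off the ends at an internal region had a median of 19 CpG, and 1327 such starts at no kept region had a median of 4. At least 10 CpG were present at 79.3% of the former and 8.06% of the latter. Starts within 5 kb of a gene end differed in the same way, with a median of 22 CpG at 11443 starts with a kept region and 3 at 7451 without. Among 118 genes with both kinds of start off the ends, 107 (90.7%) had more CpG at the marked starts, by a median of 12.75. These are descriptions across starts, which share genes and sequence, and no test was made.

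**Figure D1:**
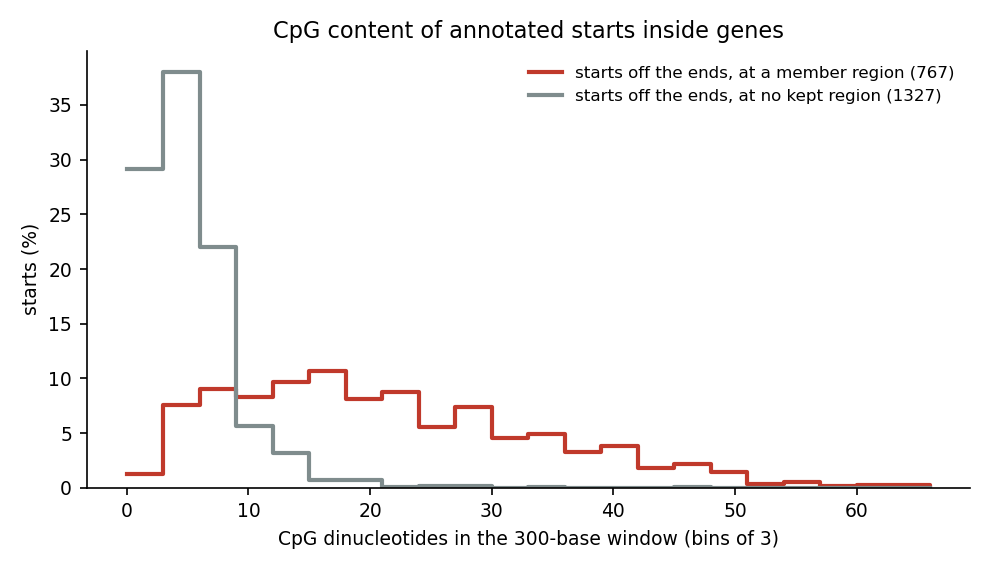
Percentage of annotated protein-coding starts more than 5 kb from every gene end (y axis) against the number of CpG dinucleotides in the 300-base window around the start (x axis, bins of 3). The 767 starts at an internal H3K4me3 region (red) spread over higher counts, median 19, than the 1327 starts at no kept region (grey), median 4.

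Core promoter letters differed too. The GC box (GGGCGG on either strand) stood in 64.1% of the windows at internal regions, in 13.3% of the unmarked windows off the ends and in 35.9% of all 32619 windows in the table. The TATA box (TATAAA, either strand) stood in 4.69%, 16.4% and 13.7%. The CCAAT box (CCAAT, either strand) stood in 33.1%, 35.6% and 37.6%, and the CRE (TGACGTCA) in 2.09%, 0.754% and 1.8%. The 32619 windows include non-coding starts. All protein-coding windows gave 46.7%, 12.7%, 38.5% and 2.26% for GC box, TATA box, CCAAT box and CRE. Protein-coding starts within 5 kb of a gene end at a kept region gave 69.9%, 5.76%, 37.9% and 3.43%. The high GC box and low TATA box shares were thus not particular to internal regions. A letter match is a description and not a bound site, and the GC box itself contains a CpG.

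Of the 1307 internal regions, 634 (48.5%) lay within 500 bases of an annotated start of their own host gene. A further 50 lay at the start of a long non-coding RNA only, and 623 at no annotated start. Host starts were known for the genes of 1047 regions, and 60.6% of these were at a host start. The share at a start therefore depends on how complete the annotation is. Non-coding genes had an end within 2 kb of 248 regions, of which 207 were near long non-coding RNAs and 15 near miRNA genes. Exons and introns were not separated here.

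Regions at host starts were the stronger and wider ones. Their median width was 1374 bases and their median mean fold enrichment 5.03, against 1079 bases and 4.15 at regions with no annotated start. Only 379 of the 623 regions with no annotated start lay in a gene with a known start, so the rest could not be classed by it. A peak in all 4 long lists was found at 75.7% of the regions at host starts and 47.8% of those with no annotated start. All 1307 had a median width of 1231 bases (range 281 to 7459) and a median fold enrichment of 4.54 (range 2.87 to 8.84). Gene-end regions had medians of 1367 bases and 5.61, and intergenic regions 875 bases and 4.15. Width, fold and the number of long lists come from the peaks that chose the regions and are given without a test.

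Fold enrichment was higher at starts with more CpG. Median fold enrichment was 4.08 at the 26 regions whose start window held under 5 CpG, 4.19 at 207 with 5 to 14, 5.10 at 206 with 15 to 24 and 5.94 at 245 with 25 or more. In the 12 libraries that did not choose the regions, the share with a peak in at least 1 library went from 0 of 26 to 8.70%, 19.9% and 31.0% over the same classes.

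The regions were spread along their genes, with fewer near the 3′ end. Of 1047 with a known strand, 209 lay in the first 20% of the gene, 290 in the next 20%, then 267 and 202, and 79 in the last 20%. Their median distance from the nearest gene end was 20189 bases. Host genes were long, with a median of 97841 bases against 17329 for all protein-coding genes. There were 1102 host genes, of which 947 held 1 region, 115 held 2 and 40 held 3 or more. A gene shorter than 10 kb cannot hold a region by this rule, which favours long genes.

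**Figure D2:**
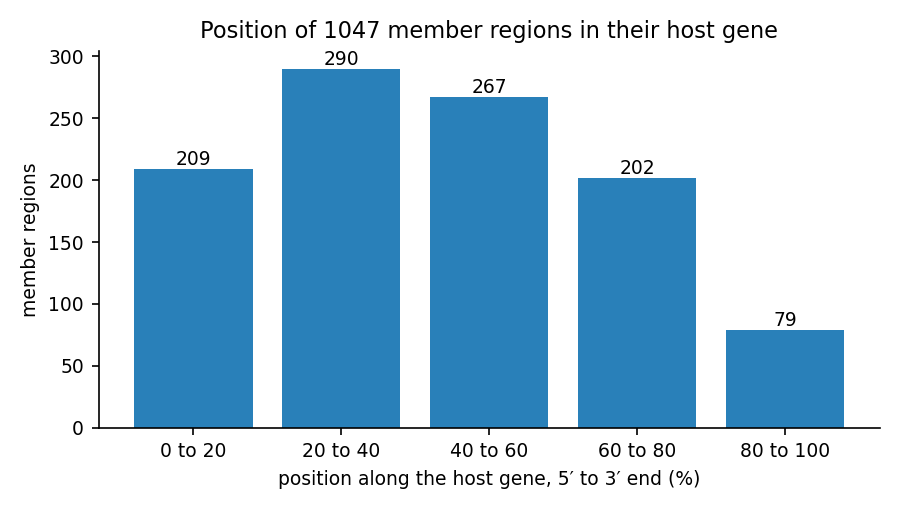
Number of internal regions (y axis) in each 20% of the host gene from its 5′ to its 3′ end (x axis), for the 1047 regions whose host strand is known. The counts are 209, 290, 267, 202 and 79, lowest in the last 20%.

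Among the regions with a peak in all 4 long lists, fold enrichment was highest in Zfp638, a zinc finger protein gene, at a region of 1450 bases. Its fold enrichment was 8.19 in KMT2D+/+ Veh, 9.15 in KMT2D+/bGeo Veh, 8.79 in KMT2D+/+ TAK-418 and 8.69 in KMT2D+/bGeo TAK-418. The region of Pkd2, which encodes polycystin-2, a cation channel, had 6.87, 7.97, 10.7 and 8.25 in the same order. Gabpb1, a subunit of an ETS-family transcription factor, had 6.84, 6.65, 12.2 and 7.67. Taok1, a kinase gene, was even across the lists at 8.49, 8.03, 8.15 and 8.38. Pom121 (mean 8.10), Exoc6 (8.0), Baz1a (7.95), Pfdn4 (7.90), Tmem39b (7.88) and Cpeb2 (7.85) completed the first 10. Of the 10, 7 were at a host start. The Pfdn4 region was at a non-coding start only, that of Gm16796, and the Cpeb2 region was at the non-coding start of Gm7854. No start of Cpeb2 or Baz1a was among the annotated starts, so a host start could not be checked for these genes.

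The 5 widest regions lay in Lhx2, Nfix, Kcnn2, Gse1 and Chd9. Lhx2, a LIM-homeobox transcription factor gene, held the widest, 7459 bases at chr2:38350372-38357830, with a fold enrichment of 5.33 in KMT2D+/+ Veh, 3.88 in KMT2D+/bGeo Veh, 5.43 in KMT2D+/+ TAK-418 and 5.37 in KMT2D+/bGeo TAK-418. Nfix, a nuclear factor I gene, held one of 6152 bases, and Kcnn2, a calcium-activated potassium channel gene, one of 5229. Gse1 followed with 4776 bases and Chd9, a chromatin remodeller gene, with 4768. Mean fold enrichments of these 5 were 5.0, 3.92, 6.93, 5.12 and 5.03 in the order given.

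Several genes held many regions. Pde4d, a cyclic AMP phosphodiesterase gene with many promoters, held 6 over 1301793 bases of gene, with mean fold enrichments from 3.73 to 6.31, the highest beside the miRNA gene Mir1904. Bcor, an X-linked corepressor gene, held 5 and Gramd1b, a lipid-transfer protein gene, 5. Nfia, another nuclear factor I gene, also held 5, of which 1 reached 7.82 and lay near the long non-coding RNA Gm38709. Zfp978 held 8, the most of any gene, at fold enrichments of 3.48 to 4.20. It sits in a zinc finger cluster whose near-identical copies can share reads, so those peaks are uncertain.

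Genes listed for known promoters inside the gene were often hosts. Of 41 such genes, 30 (73.2%) held at least 1 internal region, 55 regions in all, of which 19 were at an annotated host start. Among all protein-coding genes over 10 kb the share was 7.93%, over 100 kb 20.2% and over 300 kb 30.3%, and the median length of the list was 523434 bases. Macf1, a cytoskeletal crosslinker gene, had the highest mean fold enrichment at 7.39, followed by Fgf12 (6.80), Dst (6.76) and Gnas (6.48). Fgf12, a channel-binding growth factor homologue, ranged from 3.67 in KMT2D+/bGeo Veh to 11.4 in KMT2D+/+ TAK-418. All lists were composed with earlier results of these data known.

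Imprinted genes with a known internal promoter were also hosts. Of 12 such genes over 10 kb, 6 held a region: Gnas, Kcnq1, Igf2r, Trappc9, Grb10 and Inpp5f. The Kcnq1 region lay at the Kcnq1ot1 start, with fold enrichments of 3.86, 3.71, 4.17 and 5.15 in KMT2D+/+ Veh, KMT2D+/bGeo Veh, KMT2D+/+ TAK-418 and KMT2D+/bGeo TAK-418. The Igf2r region lay at the Airn start with 4.46, 3.73, 3.50 and 4.59. Trappc9 held a region of 4328 bases near Peg13, an imprinted non-coding RNA.

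Synaptic and neuronal genes held regions to different extents. Neural transcription factors had one in 16 of 32 genes (50%), postsynaptic and presynaptic scaffolds in 14 of 33 (42.4%), synaptic adhesion genes in 15 of 42 (35.7%), voltage-gated channels in 7 of 33 (21.2%) and glutamate and GABA receptors in 5 of 37 (13.5%). Median lengths were 203432, 207148, 661756, 222113 and 238285 bases, so the order of the shares did not follow length. Among all protein-coding genes over 100 kb the share was 20.2%, and over 300 kb it was 30.3%. Channels were close to the former and receptors below it. Adhesion genes were somewhat above the latter, and factors and scaffolds further above it. The lists were not matched to other genes by length, and no test was made. Among the factors, Nfia (7.82), Satb1 (7.59), Rora (6.59) and Foxp1 (5.85) had the highest mean fold enrichments. Tenm3 (7.17), a teneurin adhesion gene, Unc13b (6.48), a vesicle priming gene, Kcna2 (6.65) and the kainate receptor gene Grik2 (5.02) led their lists. Of 24 genes for H3K4 methylation enzymes and partners over 10 kb, Dpy30 and Ash2l, both core subunits of the methyltransferase complexes, held a region. That is 8.33%, near the 7.93% of all protein-coding genes over 10 kb. Kmt2d held none.

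The depth of each library was not given in the peak lists. The 4 long lists, 1 per group, held 13343 to 16750 peaks and the other 12 held 302 to 2281, so the short lists miss most regions. Internal regions with a peak numbered 997 (76.3%) in the long list of KMT2D+/+ Veh, 1043 (79.8%) in KMT2D+/bGeo Veh, 1235 (94.5%) in KMT2D+/+ TAK-418 and 1178 (90.1%) in KMT2D+/bGeo TAK-418. Where all 4 long lists had a peak (811 regions), fold enrichments in pairs of lists had a Spearman correlation across regions of 0.541 to 0.686. Genes marking excitatory neurons had a kept end region in 8 of 9 cases, vascular genes in 5 of 6, oligodendrocyte lineage genes in 6 of 9, inhibitory neuron genes in 5 of 9, astrocyte genes in 4 of 8, choroid plexus and ependyma genes in 2 of 4, microglia genes in 1 of 6 and blood cell genes in 0 of 5, beside 59.9% of all protein-coding genes. Sex is not in the labels, and Y-chromosome peaks were present in 1 of 4 H3K4me3 libraries of KMT2D+/+ Veh, 2 of 4 of KMT2D+/bGeo Veh, 2 of 4 of KMT2D+/+ TAK-418 and 3 of 4 of KMT2D+/bGeo TAK-418. Their part in the comparisons below was not tested; 32 internal regions are on X.

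The 12 short lists did not enter the choice of regions and allow a comparison of groups, 3 libraries each. Internal regions with a peak numbered 17, 43 and 122 in KMT2D+/+ Veh and 7, 12 and 14 in KMT2D+/bGeo Veh, groups that did not overlap. The counts were 7, 13 and 93 in KMT2D+/+ TAK-418 and 6, 11 and 19 in KMT2D+/bGeo TAK-418, and both ranges overlapped those of the Veh groups of their genotype. Group means were 60.7 ± 54.7 (SD, n = 3), 11 ± 3.61, 37.7 ± 48.0 and 12 ± 6.56 in the order given. In the same library order, the lists held 715, 768 and 2281 peaks in KMT2D+/+ Veh and 408, 305 and 499 in KMT2D+/bGeo Veh. Gene ends with a peak numbered 99, 486 and 1652 against 61, 83 and 31. List length and gene ends thus separated these 2 groups as well, and the separation was not particular to internal regions. Internal regions with no H3K4me1 peak numbered 9, 42 and 113 in KMT2D+/+ Veh and 1, 6 and 2 in KMT2D+/bGeo Veh, in the same library order. Under TAK-418 they numbered 3, 8 and 83 in KMT2D+/+ and 0, 2 and 9 in KMT2D+/bGeo. The 20 internal regions with H3K4me1 peaks thus made up much of the KMT2D+/bGeo counts.

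On the log10(count + 1) scale KMT2D+/bGeo Veh differed from KMT2D+/+ Veh by −0.599, a ratio of 0.252 (two-sided exact permutation test, p = 0.1, adjusted p = 0.4 over 4 comparisons). With 3 against 3 libraries no p below 0.1 is possible. TAK-418 differed from Veh by a ratio of 1.03 in KMT2D+/bGeo (exact p = 1, adjusted p = 1) and 0.476 in KMT2D+/+ (exact p = 0.4, adjusted p = 0.533). KMT2D+/bGeo TAK-418 against KMT2D+/+ Veh gave 0.258 (exact p = 0.2, adjusted p = 0.4). The TAK-418 difference in the 2 genotypes differed by 0.333 on the log10 scale (exact permutation within genotype, p = 0.44). Without KMT2D+/+ Veh replicate 2, which had the longest short list, the genotype difference was −0.385, and without replicate 1 it was −0.802. For regions with no H3K4me1 peak it was −1.02, and for regions in all 4 long lists −0.981, each at the same exact p = 0.1. Relative to the share of gene ends with a peak in the same library, the genotype difference turned to 0.275 above KMT2D+/+ (exact p = 0.3). That value includes the 20 internal regions with H3K4me1 peaks.

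**Figure D3:**
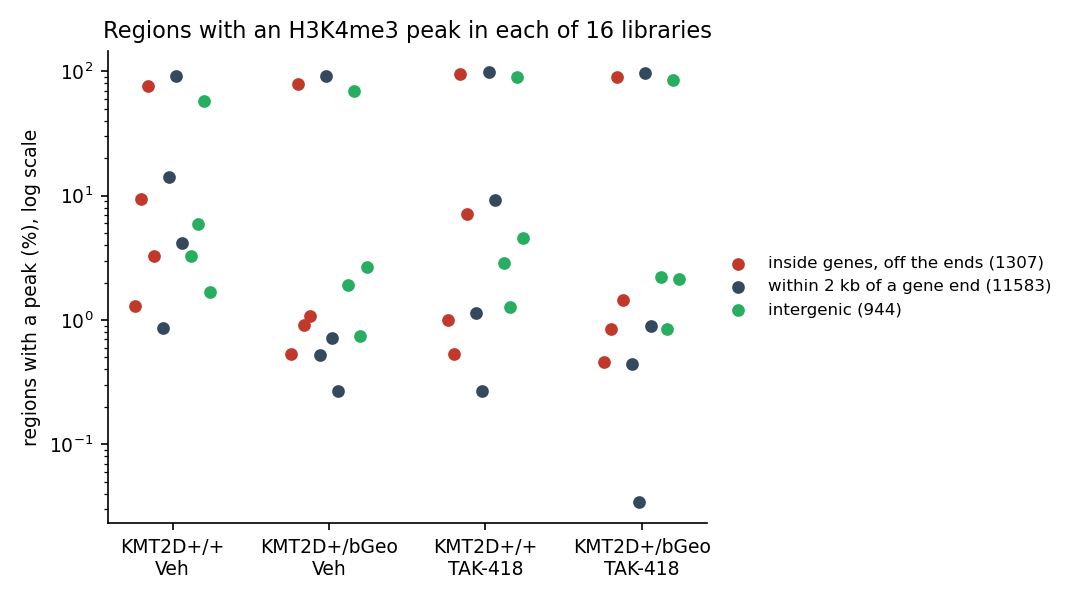
Percentage of regions with a peak (y axis, log scale) in each of 16 H3K4me3 libraries, grouped by genotype and treatment (x axis), for internal regions (red), gene ends (blue) and intergenic regions (green). For internal regions, 1 long list in each group lies near the top, at 76.3% to 94.5%, and the 3 short lists lie below 10%. Gene ends reach 14.3% in the short list of KMT2D+/+ Veh replicate 2.

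The share of internal regions with a peak did not differ from that of gene ends beyond the spread over the 12 short lists. The mean difference, internal minus gene ends, was −0.415 percentage points (SD 1.64, n = 12 libraries, exact sign-flip permutation p = 0.492), higher in 8 libraries and lower in 4. Without the library with the longest short list it was −0.00497 points. For regions of 500 to 1500 bases in both classes it was −0.0995 points (exact sign-flip permutation p = 0.909). That balance changed without the 20 internal regions that also had H3K4me1 peaks. Without regions that had any H3K4me1 peak (1287 internal regions and 11557 gene ends remained), the internal share was lower in 10 of 12 libraries. The mean difference was −0.877 points (exact sign-flip permutation p = 0.00537), while the median was −0.303 and the lowest value −5.40. This alternative was chosen after the data were seen.

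The 20 regions with H3K4me1 peaks were found far more often in the short lists. Each short list had a peak at 5% to 60% of them, and at 0% to 8.78% of the 1287 without H3K4me1 peaks. The region found in the most short lists, 10 of 12, was 433 bases in Peak1, a pseudokinase gene, with H3K4me1 peaks of 6 libraries. Regions in Zfp980 (9 lists), Zfp978 (8), Gm7592 (8) and Gm38510 (7) followed. Of the 8 regions with a peak in 6 or more short lists, all had H3K4me1 peaks. Overall 230 internal regions (17.6%) had a peak in at least 1 short list and 25 in 3 or more.

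The authors also deposited lists of differential H3K4me3 regions, each with a direction, a −log10 p (whether adjusted for multiple tests is not stated) and 4 whole-number scores per group, 1 per library. Their scores include those of the 4 libraries that chose the internal regions, and 3 of the lists share KMT2D+/+ Veh, so the lists are not independent of the choice or of each other. Counts below are of internal regions that overlap a listed region.

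In KMT2D+/bGeo Veh against KMT2D+/+ Veh, 88 internal regions (6.73%) overlapped a region listed lower and 5 (0.383%) one listed higher. Of all 14500 kept regions 9.9% and 0.379% did so. Gene ends gave 11.2% and 0.371%. Of the listed regions at internal regions 94.7% were lower, against 96.8% at gene ends and 86.6% of the whole list.

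TAK-418 against Veh in KMT2D+/bGeo gave 28 internal regions (2.14%) listed higher and 20 (1.53%) lower, against 3.11% and 3.06% of all kept regions. In KMT2D+/+ it gave 87 (6.66%) higher and 55 (4.21%) lower, against 8.72% and 6.23%. KMT2D+/bGeo TAK-418 against KMT2D+/+ Veh gave 119 (9.10%) lower and 15 (1.15%) higher, against 13% and 0.986%. In both TAK-418 comparisons with Veh of the same genotype the internal regions were listed in both directions.

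**Figure D4:**
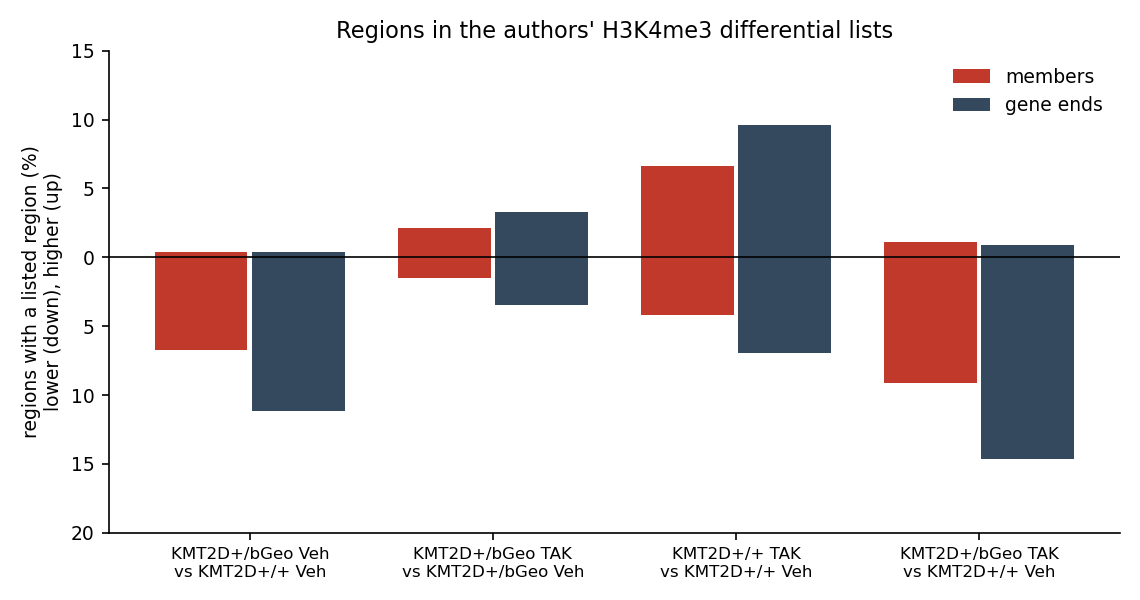
Percentage of internal regions (red) and of gene ends (blue) that overlap a region of the authors' H3K4me3 differential lists, higher (upward bars) or lower (downward bars), for 4 comparisons (x axis). Lower regions prevail in both comparisons of KMT2D+/bGeo with KMT2D+/+ Veh, at 6.73% and 9.10% of internal regions.

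A limma fit of log2(score + 1) over each whole list left no listed region past an adjusted p of 0.05. That is 0% of 1994, 1675, 2749 and 2679 listed regions, and 0 of 95, 48, 146 and 135 at internal regions, in the order genotype, TAK-418 in KMT2D+/bGeo, TAK-418 in KMT2D+/+ and KMT2D+/bGeo TAK-418 against KMT2D+/+ Veh. An unadjusted p under 0.05 was reached by 5, 0, 4 and 9 listed regions at internal regions, beside 4.11%, 1.01%, 2.47% and 6.49% of the lists. The scores were fully separated between groups at 3, 0, 1 and 0 of them, beside 2.06%, 0.299%, 0.509% and 0.373% of the lists. Median log2 differences were −0.89, 0.39, 0.39 and −0.92 at internal regions, and −0.73, 0.56, 0.32 and −0.79 over the lists. With each score column centred on its median over the list, they became −0.23, 0.23, 0.30 and −0.23 at internal regions. The lists were selected by p, and 86.6%, 32.2%, 36.7% and 73.6% of their regions were listed lower. Centring on such a list removes part of its common shift by construction. It moves differences along that shift towards 0 and enlarges those against it, here and at single regions below.

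One score position per group was usually the highest. At internal regions the third position of KMT2D+/+ Veh was the highest of its group at 70.5% of listed regions in the genotype comparison, and the second of KMT2D+/bGeo Veh at 84.2%. The third of KMT2D+/+ TAK-418 was so at 90.4% against its Veh, and the third of KMT2D+/bGeo TAK-418 at 91.9% against KMT2D+/+ Veh. In all 4 groups that position is also the place of the long list in accession order, but the files do not say whether the positions follow that order. An alternative added after the data were seen left out the position of each group that was most often its highest over the list. Limma again left 0 listed regions past an adjusted p of 0.05 in all 4 comparisons. An unadjusted p under 0.05 was reached by 33 of 95, 9 of 48, 21 of 146 and 52 of 135 listed regions at internal regions. Over the whole lists it was reached by 367 of 1994, 220 of 1675, 400 of 2749 and 830 of 2679. The positions left out were picked from these same scores for being highest. Leaving them out tends to narrow the spread within groups and lower p, so these counts are a description only. Median log2 differences at internal regions were then −1.07, 0.17, 0.25 and −1.23. Without the third position of KMT2D+/bGeo TAK-418 alone, 9 listed regions at internal regions, beside 3.81% of the list, passed against KMT2D+/+ Veh. That fit takes the highest scores from 1 group only and is lopsided by construction.

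The 5 regions with the largest deposited −log10 p among those listed lower in the genotype comparison lay in Tpm3, Kcna2, Ttc39c, Adcy9 and Pde10a, and all but that of Ttc39c were at an annotated host start. Tpm3, a tropomyosin gene, had scores of 50, 180, 288 and 159 in KMT2D+/+ Veh and 42, 122, 69 and 51 in KMT2D+/bGeo Veh. Its means were 169 ± 97.5 and 71 ± 35.8 (SD, n = 4), a log2 difference of −1.12 ± 0.67 (SE, limma adjusted p = 0.570), with a −log10 p of 7.99 in the authors' deposited table. The groups overlapped, with 1 low library in KMT2D+/+. With centred scores the log2 difference was −0.45 at Tpm3, −0.33 at Kcna2, −0.34 at Ttc39c, −0.54 at Adcy9 and −0.45 at Pde10a. Kcna2, whose start is printed above, had 96, 137, 351 and 226 against 137, 140, 53 and 64, a log2 difference of −0.99 ± 0.65 (limma adjusted p = 0.570). Its groups overlapped as well, and in the KMT2D+/+ mice it was also listed lower under TAK-418, with 81, 118, 393 and 192 against 61, 21, 250 and 118.

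Pde10a, a cyclic nucleotide phosphodiesterase gene, had scores of 84, 147, 216 and 131 in KMT2D+/+ Veh and 51, 106, 46 and 61 in KMT2D+/bGeo Veh (log2 difference −1.12 ± 0.60, limma adjusted p = 0.570). Only the highest KMT2D+/bGeo score passed the lowest KMT2D+/+ score. Adcy9, an adenylyl cyclase gene, had 158, 176, 346 and 204 against 117, 239, 80 and 30. Ttc39c had 59, 226, 360 and 191 against 74, 230, 68 and 48. The groups of both overlapped. Chosen after their values were seen, listed regions with separate groups included those in Ptprd, a synaptic adhesion phosphatase gene (59, 87, 98 and 73 against 2, 57, 25 and 28), and Nfkbiz (35, 61, 110 and 57 against 8, 32, 9 and 33).

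Of the 5 regions listed higher in KMT2D+/bGeo Veh, 3 lay in the repeated clusters of Zfp978 and Gm38510. Zfp800, a zinc finger gene outside them, had 43, 24, 60 and 21 in KMT2D+/+ Veh and 83, 108, 67 and 52 in KMT2D+/bGeo Veh (log2 difference 1.12 ± 0.61, limma adjusted p = 0.570, and 1.78 with centred scores). Its KMT2D+/bGeo TAK-418 scores against KMT2D+/+ Veh, in a list of its own, were 89, 86, 155 and 92 against 58, 55, 107 and 34. Ptch1, the Hedgehog receptor gene, had 47, 61, 163 and 39 against 142, 161, 120 and 54 in the genotype list. At Gm38510 the deposited direction was higher while the log2 difference of the fit was −0.13, and 1 of its KMT2D+/bGeo scores was 0.

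**Figure D5:**
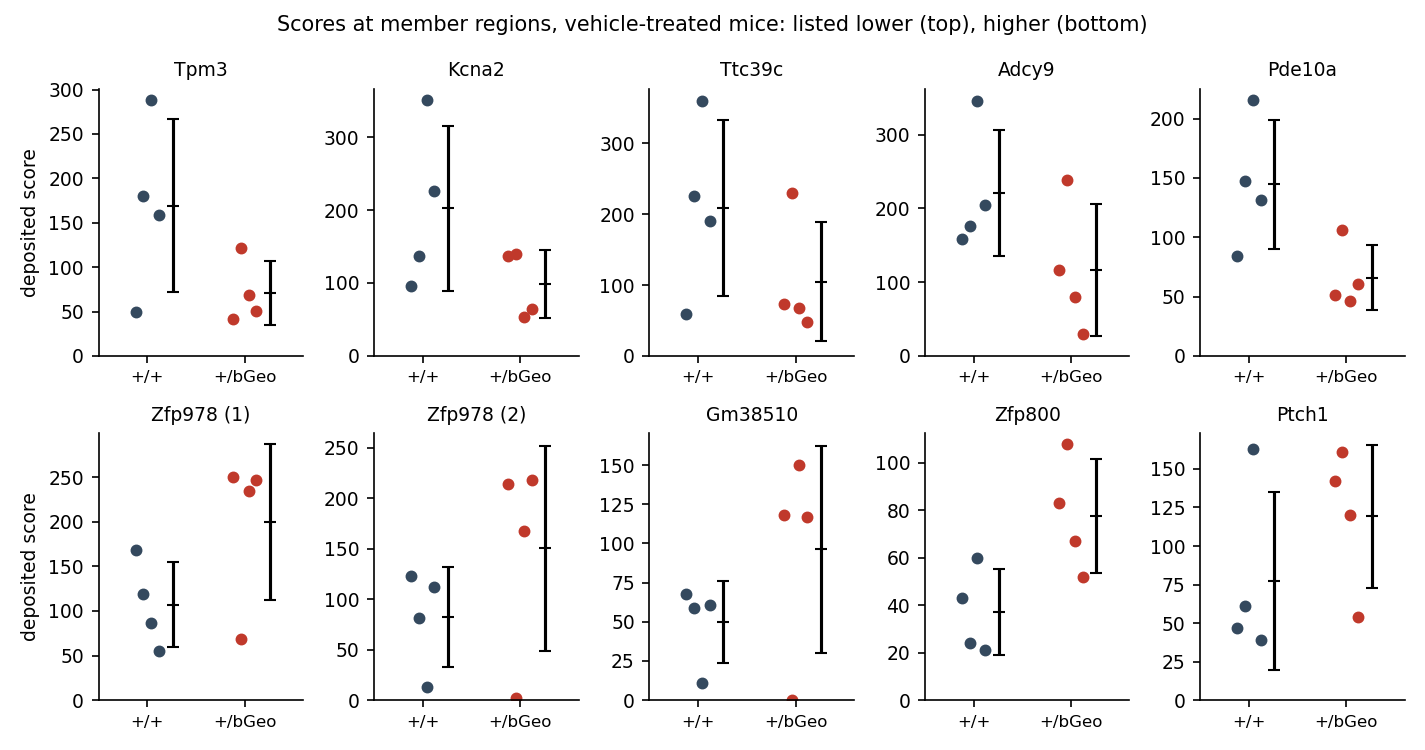
Deposited scores (y axis, from 0) of the 4 KMT2D+/+ Veh (blue) and 4 KMT2D+/bGeo Veh (red) libraries at the 10 internal regions named by deposited −log10 p, 5 listed lower (top row) and 5 higher (bottom row), with the mean and SD as black bars. The 2 groups overlap in each of the 10 panels.

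Under TAK-418 in KMT2D+/bGeo mice the regions listed lower included Csnk1e, a casein kinase gene, with 112, 201, 177 and 57 under Veh and 18, 36, 148 and 68 under TAK-418. Dyrk2 had 126, 303, 180 and 119 against 44, 15, 296 and 59, and Macf1 92, 238, 90 and 50 against 27, 13, 150 and 45. Nol4l and Nr4a2, an immediate-early nuclear receptor gene, completed these 5, at log2 differences of −1.69 and −1.19. Among those listed higher, Scoc had 42, 47, 16 and 13 against 128, 26, 155 and 26, and Phf14 107, 127, 12 and 47 against 78, 131, 230 and 106. Pik3ip1 had 29, 23, 36 and 27 against 37, 36, 128 and 71, where only 1 Veh score reached the lowest TAK-418 score. All groups named overlapped, and the limma adjusted p of each was 0.696.

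In KMT2D+/+ mice the region of Dctn1, a dynactin subunit gene, was listed lower under TAK-418, with 87, 87, 165 and 117 under Veh and 32, 72, 70 and 18 under TAK-418. It was the 1 internal region there whose groups did not overlap (log2 difference −1.39 ± 0.73, limma adjusted p = 0.780, exact permutation p = 0.0286, the smallest that 4 against 4 can give). Such separation was found at 0.685% of the listed regions at internal regions, near the 0.509% of the whole list. The region was named by a deposited p from the same scores, so its exact p is a description only. Other regions listed lower lay in C77080, Rai1, Kcna2 and Septin3. Among those listed higher, Asic2, an acid-sensing channel gene, had 90, 23, 108 and 56 against 154, 136, 188 and 57. Stox2 and Map3k1 were listed higher as well, with log2 differences of 0.69 and 0.59.

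KMT2D+/bGeo TAK-418 against KMT2D+/+ Veh listed Ttc39c, Macf1, Pde10a, Dyrk2 and Rai1 lowest by deposited p. Macf1 had 75, 129, 256 and 168 in KMT2D+/+ Veh and 27, 21, 160 and 45 in KMT2D+/bGeo TAK-418, a log2 difference of −1.64 ± 0.86 (limma adjusted p = 0.604, and −0.96 with centred scores). Rai1, the dosage-sensitive gene of Smith-Magenis syndrome, had 32, 184, 218 and 144 against 27, 16, 210 and 10. In both regions the third TAK-418 score lay within the KMT2D+/+ range and the other 3 lay below it.

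The H3K4me1 lists touched few internal regions. They overlapped 8, 5, 5 and 7 of the 1307 in the 4 comparisons, in the order used above. That is 0.612%, 0.383%, 0.383% and 0.536%, higher than the 0.166%, 0.145%, 0.166% and 0.159% of all kept regions. All of the internal regions overlapped had H3K4me1 peaks of their own. Kept regions were mostly gene ends (79.9%), of which 0.224% had any H3K4me1 peak, against 1.53% of internal and 5.30% of intergenic regions. The higher share is therefore a contrast with gene ends and was not compared with intergenic regions.

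Regions close to the limits of the rule had the following values. The region in Tsks lay 5023 bases from a gene end, just inside, and had a mean fold enrichment of 3.81, and the region in Hif3a lay 4998 bases away, just outside, with 5.0. Regions with a peak in exactly 2 long lists (279) had a median fold enrichment of 3.66, and those with a peak in 1 (2373, otherwise alike) 3.04. No internal region had H3K4me1 peaks in 7 libraries, and 29 regions inside genes were left out for having them in 8 or more.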

How the data were processed

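H3K4me3 and H3K4me1 ChIP-seq peak lists were analysed as the authors deposited them. The submitters' processing notes name mm10, MACS2, MACS and bedtools. Aligner, control and thresholds are not given in the sources used here. Every listed peak carries a fold enrichment, a ratio that the authors deposited. The authors' differential lists hold deposited whole-number scores, 1 per library, taken as normalized read values, and a deposited −log10 p of at least 1.30. Lists with no mark in their name were taken as H3K4me1, since KMT2D+/+ TAK-418 has 3 values there. Read depth is unknown.

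Peaks overlapping by at least 1 base were merged. Genes and starts came from RefSeq (GRCm38.p6), in which 17274 of 21631 protein-coding genes had a start. Counts of regions per library were compared by exact permutation tests, and scores by limma 3.58.1 in R 4.3.3, on log2(score + 1) over each whole list with Benjamini-Hochberg adjustment, tested on simulated data. In KMT2D+/bGeo TAK-418 against KMT2D+/+ Veh limma gave every region the same SE. Replicates are separate mice. Replicate numbers name libraries only.

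Members and gene lists were chosen with earlier results of these data known. Named regions are the 10 with the highest fold enrichment, the 5 widest, those in the most short lists, the 5 per differential list and direction with the largest deposited −log10 p, the genes with most regions, up to 4 examples per gene list and the 5 highest near non-coding ends (Gabpb1, Baz1a, Pfdn4, Cpeb2 and Nfia). Alternatives covered the member rule, overlap, pseudocount, filters, centring and leaving out libraries. Some named regions are not reported here.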

Additional observations from a re-analysis of the deposited data

Results flagged for a closer look

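At the 40 named differential regions, 80 groups of 4 scores were checked, and in 10 of them 1 score stood far from the other 3. For independent, normally spread scores such a gap comes in about 1 group in 20, but these groups share libraries and regions and were chosen by deposited p, so that rate is a loose guide. In KMT2D+/bGeo Veh against KMT2D+/+ Veh the score was 230 at Ttc39c and 69 at Zfp978 (both KMT2D+/bGeo) and 11 at Gm38510 (KMT2D+/+). In KMT2D+/bGeo TAK-418 it was 296 at Dyrk2 against KMT2D+/bGeo Veh, and 357 at Dyrk2, 210 at Rai1 and 155 at Zfp800 against KMT2D+/+ Veh. In KMT2D+/+ mice it was 551 at Stox2 under TAK-418 and 204 at Map3k1 under Veh, and 193 at Arhgap32 in the KMT2D+/+ Veh group compared with KMT2D+/bGeo TAK-418. In 8 of the 10 the separate score was the highest of its group.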

How the results depend on the processing

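The number of internal regions was 811 when a peak in all 4 long lists was required, and stayed within 1.5 times of 1307 under 5 other settings of the rule. Of the differences in counts over the short lists (log10 scale), that of TAK-418 in KMT2D+/bGeo turned to −0.0425 with a larger overlap, −0.142 for members in all 4 long lists, −0.0487 without H3K4me1 peaks and −0.068 at host starts, and ranged from −0.102 to 0.126 when single libraries were left out. A minimum fold enrichment of 4 changed nothing, since every short list peak passed it. Without KMT2D+/+ Veh replicate 2 the difference of KMT2D+/bGeo TAK-418 from KMT2D+/+ Veh was −0.374 and that of TAK-418 in KMT2D+/+ −0.109, and without KMT2D+/+ TAK-418 replicate 2 the latter was −0.103. Relative to gene ends, the differences were 0.275 for genotype, 0.0779 for TAK-418 in KMT2D+/+ and 0.574 for KMT2D+/bGeo TAK-418 against KMT2D+/+ Veh. The share of internal regions minus that of gene ends passed the threshold at −0.877 points without H3K4me1 peaks. Without those peaks, regions listed higher numbered 2 for genotype and 9 for KMT2D+/bGeo TAK-418 against KMT2D+/+ Veh. With a deposited −log10 p of at least 2, TAK-418 gave 11 lower and 14 higher in KMT2D+/bGeo, and 38 lower and 42 higher in KMT2D+/+.

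Leaving out single score positions gave 0 to 9 listed regions at internal regions past an adjusted p of 0.05 in limma for KMT2D+/bGeo TAK-418 against KMT2D+/+ Veh. Median log2 differences under TAK-418 ranged from −0.17 to 0.60 in KMT2D+/bGeo and −0.047 to 0.54 in KMT2D+/+. Log2 differences of single regions ranged from −0.59 to 1.65 at Zfp978, −0.80 to 1.62 at Gm38510 (genotype) and −0.56 to 0.80 at Ddx50 (KMT2D+/bGeo TAK-418 against KMT2D+/+ Veh). Without the most often highest position of both groups, Gm38510 was at 1.02 and Ddx50 at −0.39. Gm38510 was at 0.42 with a pseudocount of 10 and 0.56 with centred scores. The causes were not tested. No paired analysis was possible because replicate numbers only name libraries.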
